A study of Mus musculus with 18 samples.

Results

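The genes described here are 7 surface molecules used as gauges of antigen receptor signalling in developing T cells: Cd5, Cd6, Cd69, Cd2, Itm2a, Cd28 and Cd27. They were chosen by name, out of 55494 genes with a row in the RNA table, and were read together with the antibodies to CD5, CD69 and CD2. The antibodies to CD28 and CD27 were also counted and are given as well, so that 5 of the 127 antibodies with a count are described. All 7 genes and all 5 antibodies passed the filters on low counts in the main fit of each comparison.

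The study profiled thymocytes carrying the transgenic T cell receptors OT2, which recognises an ovalbumin peptide on MHC class II, and OT1, which recognises an ovalbumin peptide on MHC class I. Each of 6 female chimeric mice received 30% OT2 or OT1 CD45.1.2 bone marrow and 70% CD45.1 competitor marrow of B6 background, was 14 weeks old and was taken 6 weeks after the transplant. Each receptor was placed in 3 hosts. NegSelected hosts were RIPmOVA mice, of C57BL/6 background and the line Tg(Ins2-TFRC/OVA)296Wehi/WehiJ, in which the rat insulin promoter drives membrane-bound ovalbumin. PosSelected hosts were wild-type C57BL6/Ncr mice. NoSelection hosts lacked the restricting MHC molecule, through loss of MHC class II for OT2 and of B2m for OT1, and both are labelled B6.Ly5.1/Ncr. The labels disagree on the OT2 NoSelection host, which a comment field gives as lacking B2m, and the host named as the treatment was used. Sorted cells were low in CD44 and positive for CD45.1.2, Valpha2 and Vbeta5. There was 1 mouse per receptor and host, not pooled, so a difference between 2 mice has no replicate check, and its interval, always at 95%, covers counting error only.

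A thymocyte that carries both CD4 and CD8 tests its receptor against MHC molecules of the thymic cortex. Signals of moderate strength let it survive and lose CD4 or CD8, which is positive selection, whereas strong signals on self antigen can delete it. CD5 is an inhibitory surface receptor whose amount is known to follow the strength of receptor signalling during selection. CD6 is its close relative. CD69 is a lectin-like protein induced by receptor signals that holds thymocytes in the organ by removing the egress receptor S1PR1 from the surface. CD2 is an adhesion receptor that binds CD48 in the mouse. ITM2A is a small membrane protein known as a marker of thymocytes that have been signalled by positive selection. CD28 is the costimulatory receptor for CD80 and CD86, and CD27, a receptor of the tumour necrosis factor receptor family, binds CD70.

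Cd5 and Cd6 are neighbours. In GRCm38.p6, the assembly on which mm10 is based, Cd5 spans chr19:10718107-10739026 and Cd6 spans chr19:10789339-10830062, with 50312 bases between them. Cd69 lies at chr6:129267324-129275375, Cd27 at chr6:125232620-125237136, Cd2 at chr3:101275908-101287939, Itm2a at chrX:107397195-107403360 and Cd28 at chr1:60746388-60773359. Surface protein was read through a DNA tag on each antibody. The tags of the 3 antibodies that the results turn on show what was counted, each 15 bases long and written 5′ to 3′.
CD5: CAGCTCAGTGTGTTG
CD69: TTGTATTCCGCCATT
CD2: TTGCCGTGTGTTTAA

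Promoter sequence was at hand for 3 of the 7 genes. Those of Cd5 and Itm2a are shown because these genes had some of the widest ranges of level across gates. Each is a window of 300 bases that spans the gene's start, lies on the minus strand and comes from RefSeq on GRCm38.p6. Capitals mark CANNTG, the E-box, and GGAA, the core of Ets family sites, on either strand.
Cd5, chr19:10738925-10739224: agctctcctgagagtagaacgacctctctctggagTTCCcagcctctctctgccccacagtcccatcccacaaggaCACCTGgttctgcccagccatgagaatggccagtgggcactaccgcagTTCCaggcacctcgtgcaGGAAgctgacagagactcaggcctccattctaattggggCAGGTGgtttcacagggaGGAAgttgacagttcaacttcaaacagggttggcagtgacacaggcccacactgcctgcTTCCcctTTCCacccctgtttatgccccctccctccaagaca
Itm2a, chrX:107403311-107403610: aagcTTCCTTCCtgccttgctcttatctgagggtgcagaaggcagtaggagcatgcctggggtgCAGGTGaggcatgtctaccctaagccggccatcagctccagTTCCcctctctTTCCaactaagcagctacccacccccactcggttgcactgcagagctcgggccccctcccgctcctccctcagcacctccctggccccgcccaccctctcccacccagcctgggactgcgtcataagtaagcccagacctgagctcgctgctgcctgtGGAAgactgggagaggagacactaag
The Cd5 window held 2 E-boxes and 6 GGAA cores, and the Itm2a window held 1 E-box and 5 GGAA cores. Of 32851 promoter windows of this length, 72.3% held an E-box and 96.0% held a GGAA core, so neither is unusual. CCGCCC, a GC box, was found on either strand once in the Itm2a window and not in that of Cd5, against 35.7% of all windows. TGTGGT, a Runx core, was in neither window and in 16.8% of all windows.

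The files held 1331 cells, from 108 to 306 per mouse, with 525843 to 1867488 RNA UMIs and 422283 to 1234798 antibody UMIs per mouse. No cell barcode was shared between mice. A UMI is a counted molecule, and levels are UMIs per 1000000 in a sum of cells (CPM), computed separately for RNA and antibodies. CPM values are compared between samples for the same gene or antibody and never between genes. Cells were sorted into 4 gates by the CD4 and CD8A antibodies alone, at the border of a mixture of 2 components. The CD4+CD8+ gate held 80 OT2 NegSelected, 26 OT2 PosSelected, 44 OT2 NoSelection, 9 OT1 NegSelected, 19 OT1 PosSelected and 20 OT1 NoSelection cells. In all, 251 cells lay within 0.5 log2 units of a border, and in the CD4+CD8+ gate 44 of 44 OT2 NoSelection cells lay farther away, but only 6 of 19 OT1 PosSelected and 7 of 20 OT1 NoSelection cells did. Sums of at least 10 cells entered the fits, which left 21 of the 24 sums of mouse and gate.

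RNA of the CD8 lineage list (Cd8a, Cd8b1, Runx3, Cd7) summed to 334 to 583 CPM in CD4-CD8-, 114 to 711 in CD4+CD8-, 713 to 2376 in CD4-CD8+ and 1220 to 4190 in CD4+CD8+ sums. The CD4 lineage list (Cd4, Zbtb7b, Cd40lg, Gata3) summed to 83.1 to 241 CPM in CD4-CD8+ sums, while its range of 245 to 626 CPM in CD4+CD8- sums overlapped those of 208 to 433 in CD4-CD8- and 330 to 739 in CD4+CD8+ sums. Over all cells the B cell list summed to 5.05 CPM, the erythroid list to 1.30 CPM with Hbb-bs at 0, the myeloid list to 113 CPM with S100a8 at 0, and the thymic epithelium list to 12.7 CPM with Krt5 and Psmb11 at 0.

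The main pattern was a fall in the RNA of these genes in cells without either coreceptor. Relative to CD4+CD8+ cells of the same mice, 5 of the 7 genes were lower in CD4-CD8- cells and none was higher by edgeR's quasi-likelihood test, at a Benjamini-Hochberg adjusted p under 0.05 over all 4374 genes tested. The same test called 12.7% of all genes in this contrast, 5.3% as lower. The gate fit had a term for each mouse and left 12 residual degrees of freedom. In CD4+CD8- cells 1 of the 7 genes, Cd27, was lower, where 10.3% of all genes were called and 4.6% were lower. In CD4-CD8+ cells none was called, against 5.4% of all genes. For that count of 0, Cd27 was the only member with an unadjusted p under 0.05, and DESeq2 called none either. A separate feature was the OT2 NoSelection mouse, whose CD4+CD8+ cells had far lower levels of several members than any other mouse. Without this mouse the CD4-CD8- contrast called 6 of the 7 genes, all lower, where it called 8.41% of 4197 genes. Each mouse was left out in turn, but this one is singled out for its levels of these same members. Results without it, here and below, are therefore descriptions and not separate support.

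**Figure D1:**
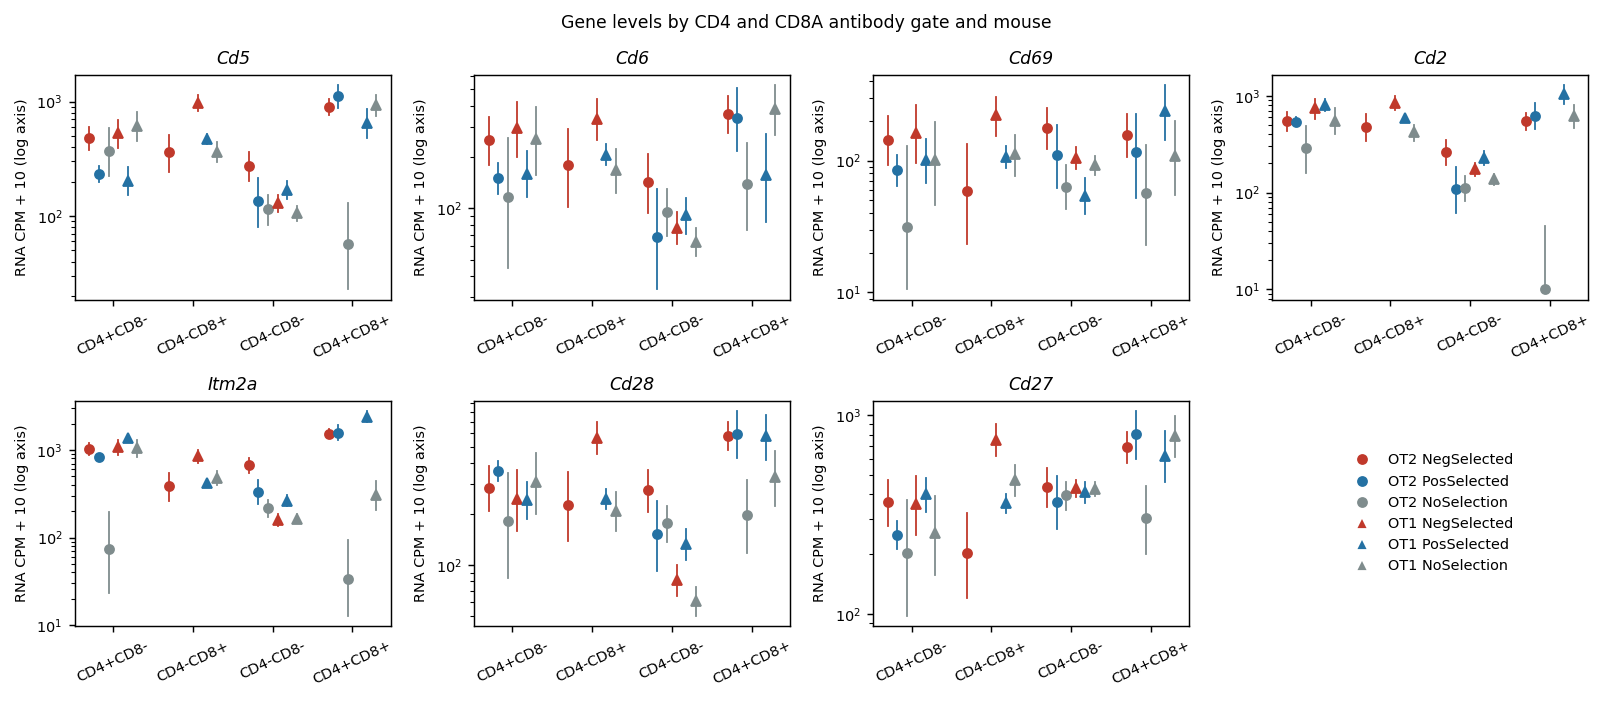
RNA level of each gene (CPM + 10, log axis) in each gate, with 1 point per mouse; colours give the host, circles OT2 and triangles OT1, and bars are exact Poisson 95% intervals. Sums under 10 cells are not drawn. The CD4-CD8- points lie low for Cd5, Cd6, Cd2 and Cd28, and the OT2 NoSelection circle lies lowest of all CD4+CD8+ points for all 7 genes.

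The RNA level of Cd5 in CD4-CD8- cells was 95.7 CPM at the lowest, 122 at the median and 265 at the highest of 6 mice. In CD4+CD8+ cells it was 891 CPM in the OT2 NegSelected, 1110.4 in the OT2 PosSelected, 46.9 in the OT2 NoSelection, 644 in the OT1 PosSelected and 923 in the OT1 NoSelection mouse. The gates did not overlap once the OT2 NoSelection mouse was set aside, and that mouse, with 104 CPM in CD4-CD8- cells, was the only one of 5 in which Cd5 was not lower there. On the log2 scale it fell by 2.28 in CD4-CD8- cells (SE 0.39, adjusted p 0.000367). The call held under every alternative that was run.

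In the single-coreceptor gates, CD4+CD8- cells had 193 to 607 CPM in 6 mice, and CD4-CD8+ cells had 350 to 962 CPM in 4 mice. The CD4+CD8- values overlapped those of CD4-CD8- cells, and the CD4-CD8+ values overlapped those of CD4+CD8+ cells. The difference of CD4+CD8- minus CD4+CD8+ cells was -0.87 (SE 0.39, adjusted p 0.191). Without the OT2 NoSelection mouse it was -1.23 (SE 0.32, adjusted p 0.0194), with Cd5 lower in CD4+CD8- cells of all 4 other mice that had both gates.

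The CD5 antibody did not show a like fall in most mice. It counted 105648 to 148060 CPM in CD4+CD8- cells, against 76662 to 132923 CPM in 4 of the CD4+CD8+ sums that entered the fit and 11803 CPM in the fifth, OT2 NoSelection. It was higher in CD4+CD8- than in CD4+CD8+ cells in 4 of 5 mice, but the fitted difference of 0.63 (SE 0.34, adjusted p 0.182) did not pass the test. In the OT1 PosSelected mouse, for example, Cd5 RNA was 193 CPM in CD4+CD8- and 644 CPM in CD4+CD8+ cells, while the CD5 antibody was 127438 CPM in CD4+CD8- and 132923 CPM in CD4+CD8+ cells. The RNA and antibody readouts were not tested against each other.

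In CD4-CD8- cells the CD5 antibody ranged from 35592 to 65546 CPM in 6 mice. The difference from CD4+CD8+ cells was -0.92 (SE 0.34, adjusted p 0.0541) and missed the threshold, where 29.3% of the 116 antibodies tested were called. Without the OT2 NoSelection mouse it was -1.26 (SE 0.14, adjusted p 1.67e-05), and 6 other alternatives also brought it past the threshold, among them the fit without a term for the mouse (adjusted p 0.0302). In CD4-CD8+ cells the CD5 antibody was 48376 CPM in the OT2 NegSelected, 108225 in the OT1 NegSelected, 91591 in the OT1 PosSelected and 70474 in the OT1 NoSelection mouse. It was lower than in CD4+CD8+ cells in 3 of 3 mice with both gates, with a difference of -0.38 (SE 0.38, adjusted p 0.648, where 8.62% of antibodies were called), and of -0.65 (SE 0.15, adjusted p 0.0195) without the OT2 NoSelection mouse.

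Cd6 had 53.8 to 133 CPM in CD4-CD8- cells. CD4+CD8+ cells had 348 CPM in the OT2 NegSelected, 330 in the OT2 PosSelected, 129 in the OT2 NoSelection, 147 in the OT1 PosSelected and 373 in the OT1 NoSelection mouse. The 2 ranges overlap only through the CD4-CD8- value of the OT2 NegSelected mouse and the CD4+CD8+ value of the OT2 NoSelection mouse. Cd6 fell by 1.78 in CD4-CD8- cells (SE 0.28, adjusted p 0.000144) and was lower there in 5 of 5 mice. A CD6 antibody was not analysed here.

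No gate difference of Cd69 passed the test. It had 44.3 to 167 CPM in CD4-CD8-, 21.4 to 152 in CD4+CD8-, 48.2 to 210 in CD4-CD8+ and 46.9 to 228 in CD4+CD8+ cells, and all 4 ranges overlap. The counts behind these levels are small, from 1 to 117 UMIs per sum. The difference of CD4-CD8- minus CD4+CD8+ cells was -0.60 (SE 0.32, adjusted p 0.250) and that of CD4+CD8- minus CD4+CD8+ cells was -0.35 (SE 0.35, adjusted p 0.597).

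The CD69 antibody ran from 3047 to 6125 CPM over 21 sums, a 2.01-fold range. The ranges of the CD28 (2.15-fold) and CD27 (2.62-fold) antibodies were similar. Those of CD2 (7.75-fold) and CD5 (12.5-fold) were wider. The highest of 9 isotype control antibodies reached 902 to 1461 CPM in the same sums, so that CD69 stood 2.44 to 5.49 times above it. In CD4+CD8- cells the 3 OT1 mice had 6034 to 6125 CPM, and the OT2 mice had 5047 CPM (NegSelected), 4155 (PosSelected) and 3047 (NoSelection). No gate difference of this antibody passed the test, with fitted values from -0.16 to 0.14. These fits do not show that CD69 was equal in the gates; the SE of each was 0.15 to 0.17.

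**Figure D2:**
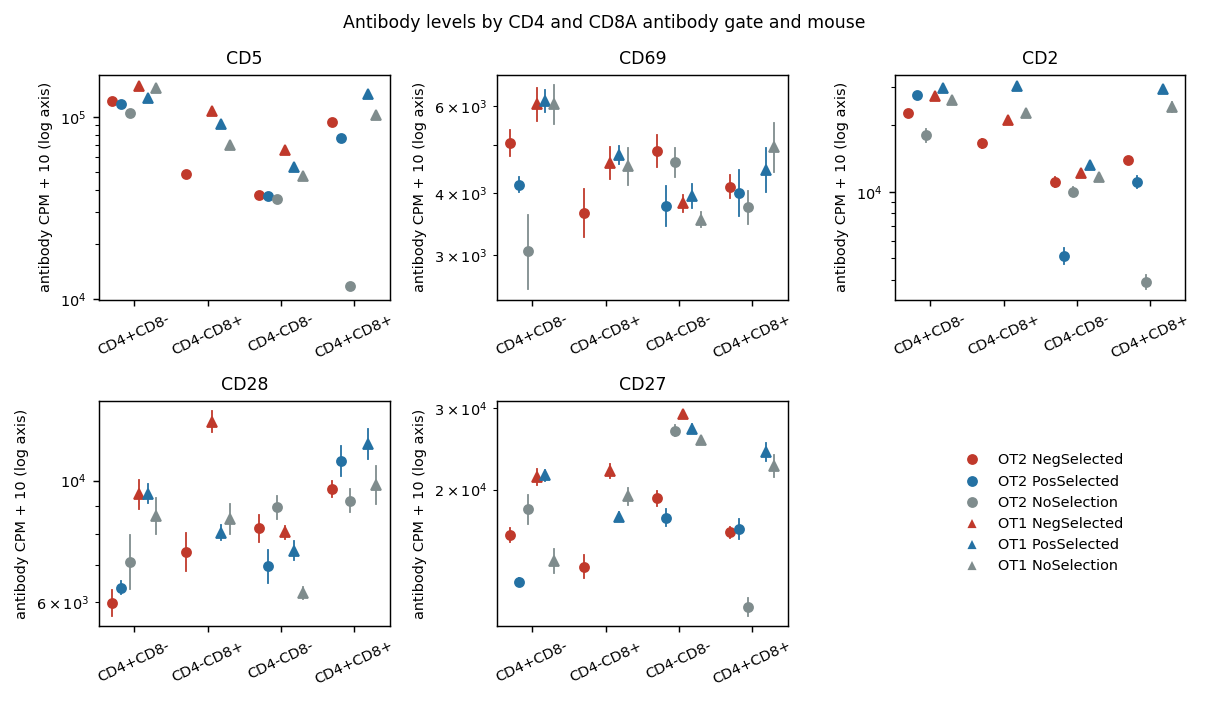
Antibody level (CPM + 10, log axis) in each gate, with 1 point per mouse; colours give the host, circles OT2 and triangles OT1, and bars are exact Poisson 95% intervals. CD5 and CD2 span the widest ranges, CD69 stays between 3047 and 6125 CPM, and CD27 has its highest values in CD4-CD8- cells.

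Cd2 had 99.9 to 254 CPM in CD4-CD8- cells. CD4+CD8+ cells had 538 CPM in the OT2 NegSelected, 615 in the OT2 PosSelected, 1032 in the OT1 PosSelected and 604 in the OT1 NoSelection mouse, and no Cd2 UMI among 85203 RNA UMIs in the OT2 NoSelection mouse. Of these, only the OT2 NoSelection mouse lay within or below the CD4-CD8- range. Cd2 fell by 1.65 in CD4-CD8- cells (SE 0.33, adjusted p 0.00173). The call was lost when cells near a gate border were left out (-1.13, adjusted p 0.102). Without border cells no OT1 CD4+CD8+ sum reached 10 cells, so CD4+CD8+ cells entered that fit from OT2 mice only. CD4+CD8- cells, with 278 to 801 CPM, and CD4-CD8+ cells, with 408 to 834 CPM, overlapped the CD4+CD8+ range, and neither difference passed the test.

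The CD2 antibody had 5103 to 13295 CPM in CD4-CD8-, 18004 to 29640 in CD4+CD8-, 16565 to 30084 in CD4-CD8+ and 3882 to 29187 in CD4+CD8+ cells. It was higher in CD4+CD8- than in CD4+CD8+ cells in 5 of 5 mice, but the fitted difference of 0.70 (SE 0.28, adjusted p 0.0823) missed the threshold, where 28.4% of antibodies were called. It passed with DESeq2 (adjusted p 0.0365) and without border cells (1.16, adjusted p 0.0330). The fit without border cells held CD4+CD8+ sums of OT2 mice only. The difference of CD4-CD8- minus CD4+CD8+ cells was -0.60 (SE 0.28, adjusted p 0.123), and -0.94 (SE 0.19, adjusted p 0.00321) without the OT2 NoSelection mouse. Among CD4+CD8+ cells the 3 OT2 mice, at 13961 CPM (NegSelected), 11088 (PosSelected) and 3882 (NoSelection), lay below the 3 OT1 mice, at 23492, 29187 and 24352 CPM in the same order of hosts. Most OT1 cells of this gate lay near a border, as given above, and their part in this order was not tested.

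The RNA level of Itm2a in CD4-CD8- cells was 148 to 658 CPM. In CD4+CD8+ cells it was 1527 CPM in the OT2 NegSelected, 1561 in the OT2 PosSelected, 23.5 in the OT2 NoSelection, 2386 in the OT1 PosSelected and 297 in the OT1 NoSelection mouse. Both NoSelection mice were below both PosSelected mice within the CD4+CD8+ gate. The 2 NoSelection values lay within or below the CD4-CD8- range and the 3 others above it. Itm2a fell by 1.66 in CD4-CD8- cells (SE 0.47), with the highest adjusted p of the 5 calls, 0.0205. The call was lost without the OT1 PosSelected mouse (-1.10, adjusted p 0.188), without the OT1 NegSelected (adjusted p 0.0535), OT2 PosSelected (0.0885) or OT2 NegSelected mouse (0.0522), and under 4 other alternatives.

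In CD4+CD8- cells Itm2a had 812 to 1362 CPM in 5 mice and 64.1 CPM, from 3 UMIs in 10 cells, in the OT2 NoSelection mouse. The difference of CD4+CD8- minus CD4+CD8+ cells was -0.04 (SE 0.46, adjusted p 0.979), and its sign changed under several alternatives. CD4-CD8+ cells had 374 to 834 CPM. An ITM2A antibody was not analysed here.

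Cd28 in CD4-CD8- cells had 51.0 CPM at the lowest, 132 at the median and 265 at the highest of 6 mice. CD4+CD8+ cells had 571 CPM in the OT2 NegSelected, 585 in the OT2 PosSelected, 188 in the OT2 NoSelection, 563 in the OT1 PosSelected and 319 in the OT1 NoSelection mouse. The ranges overlap through the OT2 NoSelection mouse. Cd28 fell by 1.74 in CD4-CD8- cells (SE 0.32, adjusted p 0.00076) and was lower there in 5 of 5 mice.

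The CD28 antibody had 6222 to 8924 CPM in CD4-CD8-, 5969 to 9446 in CD4+CD8- and 9185 to 11665 in CD4+CD8+ cells. It was lower as well, by 0.57 (SE 0.15, adjusted p 0.0118) in CD4-CD8- cells and by 0.53 (SE 0.15, adjusted p 0.0132) in CD4+CD8- cells, each in 5 of 5 mice. It was the only one of the 5 antibodies called in either contrast. Of all 116 antibodies, 29.3% were called in CD4-CD8- cells, 12.1% as lower, and 28.4% in CD4+CD8- cells, 12.9% as lower. A share of 1 of 5 is below those called in either direction and above those called as lower. Leaving out the OT1 NoSelection mouse ended the CD4-CD8- call (adjusted p 0.0504), and the CD4+CD8- call ended without the OT2 PosSelected (0.0687) or OT2 NegSelected mouse (0.0538) or with at least 20 cells per sum (0.0553).

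Cd27 was the 1 gene called in the CD4+CD8- gate. CD4+CD8- cells had 355 CPM in the OT2 NegSelected, 241 in the OT2 PosSelected, 192 in the OT2 NoSelection, 391 in the OT1 PosSelected and 245 in the OT1 NoSelection mouse. CD4+CD8+ cells of these mice had 679, 795, 293, 617 and 780 CPM in the same order. Cd27 was lower in CD4+CD8- cells in 5 of 5 mice and fell by 1.00 (SE 0.23, adjusted p 0.00529). Leaving out a mouse ended the call for the OT1 NoSelection (-0.86, adjusted p 0.0501) or OT2 PosSelected mouse (-0.83, adjusted p 0.0657). A minimum of 20 cells per sum (-0.88, adjusted p 0.0711) and the removal of border cells (-0.82, adjusted p 0.140) ended it as well. Without border cells only OT2 mice had a CD4+CD8+ sum. In CD4-CD8- cells Cd27 was nearly constant across mice, at 358 to 427 CPM, and differed from CD4+CD8+ cells by -0.62 (SE 0.22, adjusted p 0.0626). That difference passed the threshold without a term for the mouse (-0.64, adjusted p 0.0492) and without the OT2 NoSelection mouse (-0.82, adjusted p 0.0187).

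The CD27 antibody was the only one of the 5 that was higher in CD4-CD8- than in CD4+CD8+ cells in 5 of 5 mice. CD4-CD8- cells had 17380 to 29153 CPM and CD4+CD8+ cells 11132 to 24082 CPM. The fitted difference was 0.27 (SE 0.17, adjusted p 0.219) and did not pass the test.

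CD4-CD8- cells also carried RNA of other kinds. The gamma delta T cell list (8 of its 11 names were in the table) summed to 1617 to 3249 CPM in CD4-CD8- sums, with all 8 genes above 0 in each of the 6 mice, against 21.7 to 416 CPM in the CD4+CD8+ sums, where Maf and Blk were at 0 in each of the 5. The innate-like T and natural killer list summed to between 0 and 214 CPM in CD4-CD8- and between 0 and 15.0 CPM in CD4+CD8+ sums. The part of these cells in the lower levels was not tested.

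**Figure D3:**
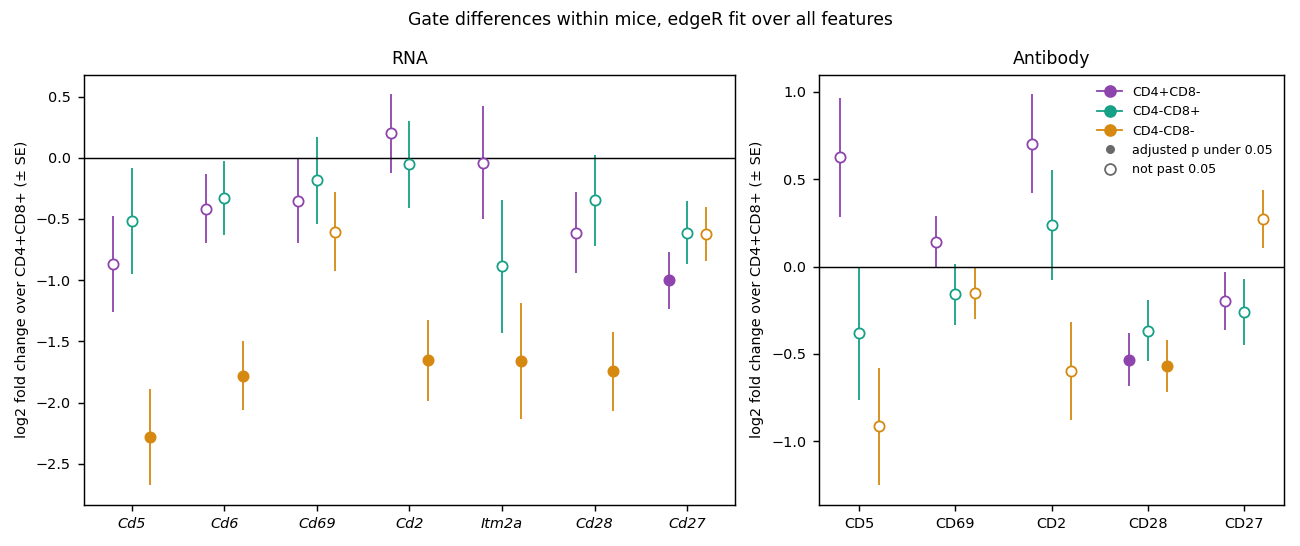
Fitted log2 fold change of each gate over CD4+CD8+ cells (points, with SE as bars) for the 7 genes and the 5 antibodies; filled points have an adjusted p under 0.05. For RNA, 5 filled points lie between -1.65 and -2.28 in CD4-CD8- cells and Cd27 is filled in CD4+CD8- cells. For antibodies only CD28 is filled.

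Within the CD4+CD8+ gate, the hosts could be compared with the gate held fixed. Itm2a and Cd2 were higher in PosSelected than in NoSelection mice, by 3.85 (SE 0.51, adjusted p 1.30e-10) and by 2.02 (SE 0.50, adjusted p 0.00946) on the log2 scale in edgeR's test. These were 2 of the 7 genes, where 0.863% of the 2782 genes tested were called, 0.324% as higher. The fit rests on 5 mice and 1 residual degree of freedom, and both calls were lost with the 9 OT1 NegSelected cells added (Itm2a 3.62, adjusted p 0.0586; Cd2 1.81, adjusted p 0.503) and without the OT2 NegSelected mouse (Itm2a 3.79, adjusted p 0.529; Cd2 1.98, adjusted p 0.918). The directions were kept in both, and Cd69 did not pass the filter in the last of these fits. The OT2 NegSelected mouse is the only one of its host there, and without it the differences hardly moved while the adjusted p-values did. The test in edgeR shares its estimate of spread across genes, so adjusted p-values this small do not measure the spread between these mice. Of the other members, Cd5 had a difference of 1.33 (SE 0.51, adjusted p 0.367), Cd28 of 1.17 (SE 0.46, adjusted p 0.414) and Cd69 of 1.14 (SE 0.58, adjusted p 0.840). None of the 5 antibodies passed the test in this comparison, and 0% of the 116 antibodies tested did, with 5 at an unadjusted p under 0.05.

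Within each receptor, Itm2a was higher in the PosSelected than in the NoSelection mouse: 66.5-fold in OT2 (interval 17.9 to 556, from 104 and 2 UMIs) and 8.05-fold in OT1 (5.35 to 12.6, from 178 and 27 UMIs). Cd2 was at least 17.5-fold higher in OT2, computed against 3 counts in the OT2 NoSelection sum, and 1.71-fold higher in OT1 (1.19 to 2.46). For Cd5 the receptors gave unlike ratios. It was 23.7-fold higher in OT2 PosSelected than in OT2 NoSelection cells (8.86 to 89.1, from 74 and 4 UMIs), and in OT1 the ratio was 0.697 (0.479 to 1.01). Whether the receptors differ could not be tested with 1 mouse each.

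The antibodies gave the same order in the OT2 mice. CD5 was 6.50-fold higher in OT2 PosSelected than in OT2 NoSelection CD4+CD8+ cells (6.18 to 6.82) and CD2 was 2.86-fold higher (2.59 to 3.15), while CD69 had a ratio of 1.07 (0.938 to 1.22) and CD28 of 1.18 (1.09 to 1.28). In OT1 these ratios were 1.30 for CD5 (1.26 to 1.34), 1.20 for CD2 (1.12 to 1.28), 0.899 for CD69 (0.771 to 1.05) and 1.19 for CD28 (1.07 to 1.32). Per cell, the median CD5 count was from 679 to 1303 of 10000 antibody UMIs in 5 mice and 88.7 in the 44 OT2 NoSelection cells. The OT2 NoSelection cells reached at most 415, and 73 of 80 OT2 NegSelected, 23 of 26 OT2 PosSelected, 9 of 9 OT1 NegSelected, 19 of 19 OT1 PosSelected and 16 of 20 OT1 NoSelection cells lay above that value.

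**Figure D4:**
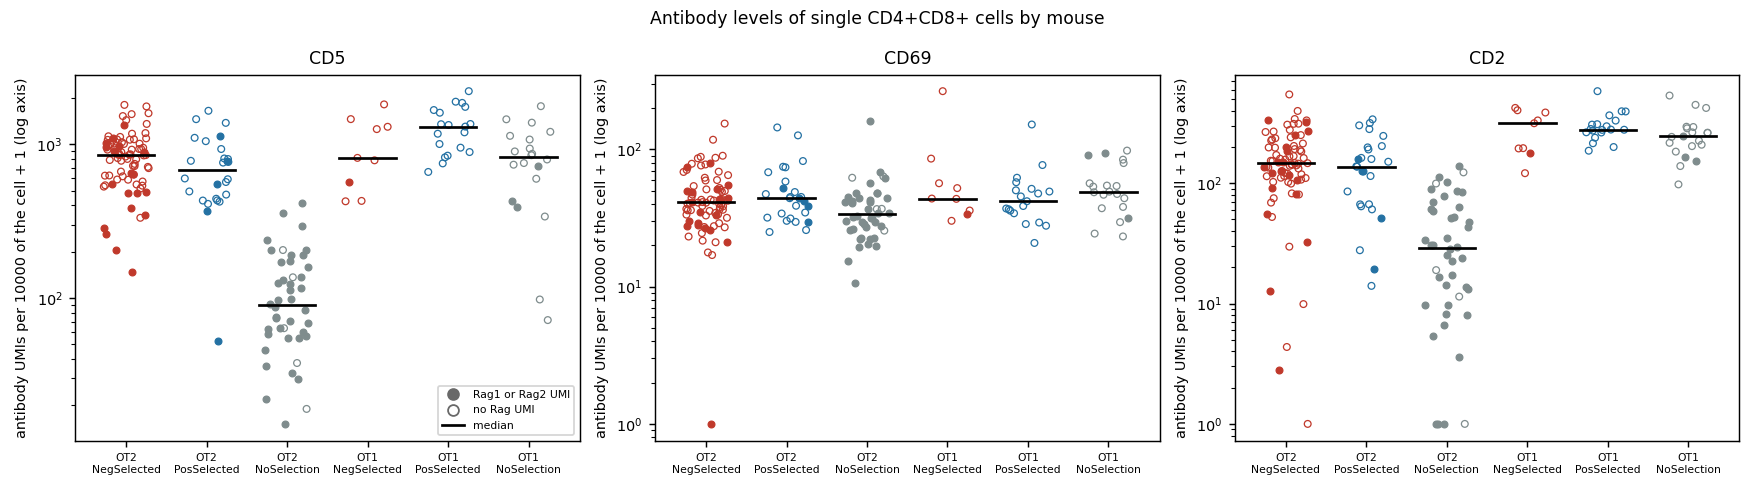
CD5, CD69 and CD2 antibody UMIs per 10000 of each CD4+CD8+ cell (+ 1, log axis) by mouse; filled points have a Rag1 or Rag2 UMI and black lines are medians. OT2 NoSelection cells, nearly all filled, lie lowest for CD5 (median 88.7) and CD2, and for CD69 the mice overlap.

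The same cells differed in the RNA of Rag1 and Rag2, which encode the recombinase that is active before selection. These genes gave a UMI in 19 of 80 OT2 NegSelected, 5 of 26 OT2 PosSelected and 39 of 44 OT2 NoSelection CD4+CD8+ cells. They gave one in 1 of 9 OT1 NegSelected, 0 of 19 OT1 PosSelected and 3 of 20 OT1 NoSelection cells. In the CD4+CD8- gate, whose cells should lack this RNA, 1 of 344 cells had such a UMI at a median of 3268 RNA UMIs per cell, against 67 of 198 CD4+CD8+ cells at 2404. The preselection list (Rag1, Rag2, Dntt, Arpp21, Ptcra) summed to 121 to 1440 CPM in 4 CD4+CD8+ sums of the fit and to 4906 CPM in the OT2 NoSelection sum, with all 5 genes above 0. These OT2 NoSelection cells were also the shallowest, at a median of 1852 RNA UMIs per cell, against 2404 over the whole gate. The part of Rag RNA and depth in the lower levels of this mouse was not tested.

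Cells with a Rag UMI within the OT2 NegSelected mouse had lower levels of some members too. Their Cd5 was 367 CPM in 19 cells, against 1041 CPM in the 61 cells without one. Itm2a was 220.0 CPM in cells with a Rag UMI and 1900.5 CPM in those without, and Cd2 was 196 and 636 CPM in the same order. Cd69 was 24.4 and 182 CPM, the first among 40907 RNA UMIs, so that it rests on very few molecules. Cd28 was 489 and 594 CPM, Cd6 391 and 335 CPM and Cd27 636 and 692 CPM, so these genes differed less. Other mice did not all share the order of Cd5. With and without a Rag UMI it was 260 and 1288 CPM in OT2 PosSelected cells (5 and 21 cells). It was 51.9 and 0 CPM in OT2 NoSelection (39 and 5 cells) and 1181 and 893 CPM in OT1 NoSelection cells (3 and 17 cells). The 5 OT2 NoSelection cells held only 8148 RNA UMIs, too few for the 0 to give an order. The median CD5 antibody count of cells with a Rag UMI was 555 per 10000 in the OT2 NegSelected, 551 in the OT2 PosSelected and 90.5 in the OT2 NoSelection mouse. These medians are over 19, 5 and 39 cells in the same order. In the OT2 NoSelection mouse the 5 cells without a Rag UMI had a median of 62.6. None of these comparisons has a test.

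NegSelected minus PosSelected within the CD4+CD8+ gate called 0% of 2782 genes and 0% of 116 antibodies in edgeR, with 28 genes and 2 antibodies at an unadjusted p under 0.05. The NegSelected side of this fit is the OT2 mouse alone. The members' differences lay between 0.15 for Cd28 and 0.67 for Cd6, each with an SE of 0.52 to 0.67. The fit sets this mouse against a PosSelected level adjusted for receptor, which draws on the NoSelection mice as well as both PosSelected mice. It gave positive values for all 7 genes. In the OT2 pair alone Cd5, Cd2, Itm2a, Cd28 and Cd27 were lower in the NegSelected mouse. In OT2, Cd5 was 891 CPM in the NegSelected and 1110.4 CPM in the PosSelected mouse, a ratio of 0.803 (0.606 to 1.07), while the CD5 antibody was 93996 CPM in the NegSelected and 76662 CPM in the PosSelected mouse, a ratio of 1.23 (1.19 to 1.26).

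Summed over all cells, no member passed the test between hosts. PosSelected minus NoSelection called 0.011% of 9092 genes, and the largest member differences were 1.70 for Cd2 (SE 0.32, adjusted p 0.163), 1.69 for Itm2a (SE 0.41, adjusted p 0.285), 1.11 for Cd28 (SE 0.20, adjusted p 0.159) and 0.97 for Cd5 (SE 0.34, adjusted p 0.522). Each of these 4 genes was higher in the PosSelected mouse of both receptors. This fit has 2 residual degrees of freedom, 664 genes had an unadjusted p under 0.05, and DESeq2 called 33 genes, among them Cd2 and Cd28. Among the alternatives 6 called Cd2, 5 Cd28, 4 Itm2a and 2 Cd5. Of 116 antibodies 0.862% were called and no member, with differences of 1.13 for CD5 (SE 0.36, adjusted p 0.375) and 1.13 for CD2 (SE 0.32, adjusted p 0.375). DESeq2 called both, and CD5 was also called without the OT1 PosSelected mouse (1.42, adjusted p 0.0115). These sums mix gates whose shares differ: the CD4-CD8- share was 9.84% in the OT2 PosSelected and 47.2% in the OT2 NoSelection mouse, and 31.9% in the OT1 PosSelected and 74.8% in the OT1 NoSelection mouse.

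NegSelected minus PosSelected over all cells called 0% of 9092 genes and 0% of 116 antibodies in edgeR, with 418 genes and 9 antibodies at an unadjusted p under 0.05, and DESeq2 called 6 genes and 3 antibodies. The largest difference among the 7 genes was 0.54 for Cd69 (SE 0.27, adjusted p 0.999), and among the 5 antibodies -0.58 for CD2 (SE 0.32, adjusted p 0.544).

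OT2 minus OT1 over all cells called 1.07% of 9092 genes and no member. Cd28 came nearest, at 0.85 (SE 0.17, adjusted p 0.0613): it had 356, 328 and 165 CPM in the OT2 NegSelected, PosSelected and NoSelection mice, against 154, 208 and 95.3 CPM in the OT1 mice in the same order of hosts. It was higher in OT2 in 3 of 3 hosts, and 6 of the alternatives brought it past the threshold. The CD28 antibody did not share this direction, with a difference of -0.05 (SE 0.21, adjusted p 0.920). Of the 116 antibodies 0% were called in edgeR, 20 had an unadjusted p under 0.05, and DESeq2 called 23, among them CD27, which was lower in OT2 (edgeR -0.60, SE 0.21, adjusted p 0.282). The test of whether a gate difference itself differs between the receptors called 0.0669% of 5982 genes for CD4+CD8- and 0.201% for CD4-CD8- against CD4+CD8+ cells, and no member. The largest member value was that of Itm2a in CD4-CD8- cells, 1.79 (SE 0.68, adjusted p 0.360). Cd28 (1.58, SE 0.50, adjusted p 0.237) and Cd69 (1.57, SE 0.51, adjusted p 0.243) came nearer the threshold there. Cd28, Cd69, Itm2a and Cd2 had an unadjusted p under 0.05 in the CD4-CD8- test, as did 577 of the 5982 genes. For antibodies both tests called 0% of 117, with 16 and 13 at an unadjusted p under 0.05.

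RNA and antibody levels of the same mouse and gate were compared over the 21 sums on the scale of log2(CPM + 10). The sums share mice and the same cells, so these correlations are descriptions. Pearson's r was 0.866 for Cd2, 0.721 for Cd5, 0.621 for Cd28, 0.524 for Cd69 and 0.431 for Cd27. Without the OT2 NoSelection CD4+CD8+ sum, r was 0.809 for Cd2 and 0.616 for Cd5. For Cd5, the CD4+CD8- sums had high antibody for their RNA, as in the OT1 PosSelected mouse above. From cell to cell, the Spearman correlation of the CD2 with the CD5 antibody within 18 sets of at least 20 cells had a median of 0.172, and that of CD69 with CD5 a median of 0.0906.

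**Figure D5:**
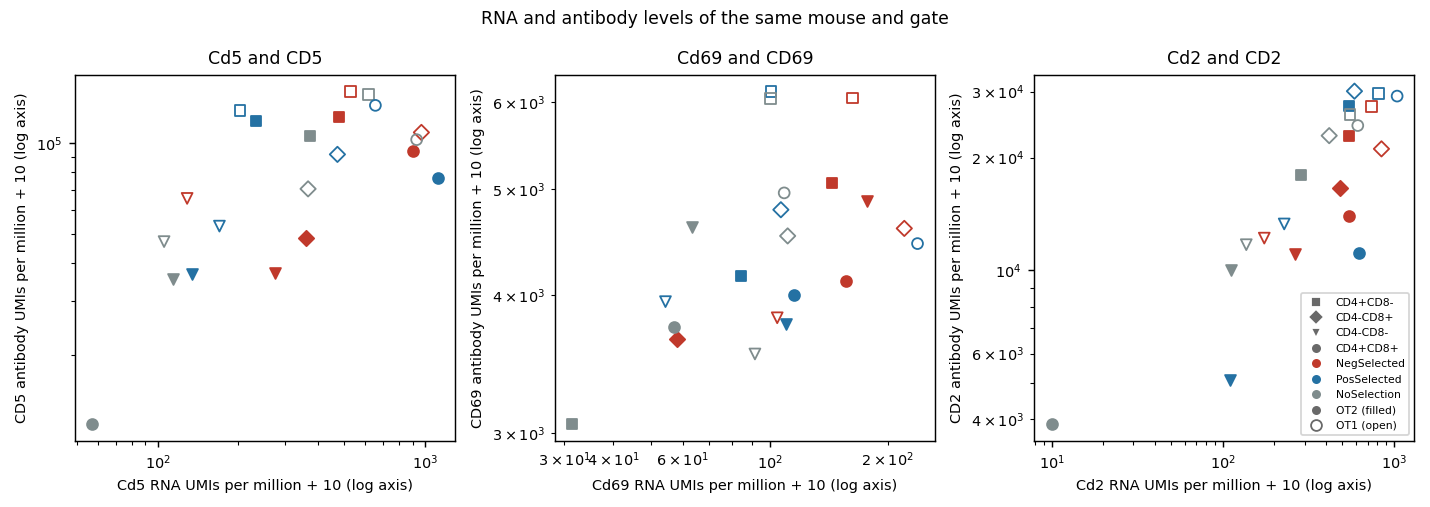
RNA against antibody CPM (both + 10, log axes) for CD5, CD69 and CD2 over 21 sums of mouse and gate; shapes give the gate, colours the host, filled points OT2 and open points OT1. The OT2 NoSelection CD4+CD8+ sum is the lowest point for CD5 and CD2, and the CD5 antibody of CD4+CD8- sums stays at or above 105648 CPM over a wide range of RNA.

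Genes around these receptors were read from 5 lists. In CD4-CD8- relative to CD4+CD8+ cells, 4 of 14 tested egress and late maturation genes were higher and 1 lower (median 1.16, against -0.04 over all genes). Among those higher were Nkg7 (4.13) and Klf2, which drives S1pr1 (2.66). Of the ligands and partners of these receptors, 2 of 24 were higher and 3 lower (median -0.05). Lck, the coreceptor-bound kinase, fell by 1.03 and Themis, which tunes receptor signals in CD4+CD8+ cells, fell by 1.48, while Lgals1 was higher by 1.08. Of 15 signal-induced genes 2 were higher and 2 lower (median 0.35). Pdcd1 (3.51) and Myc (1.70) were higher and Nab2, a corepressor of EGR factors, fell by 1.80. Of 6 preselection genes 2 were lower (median -0.96), and of 14 other costimulatory and adhesion receptors 2 were higher and 2 lower (median -0.08), with Itgae at 4.68 and Slamf1 at -2.09.

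In CD4+CD8- relative to CD4+CD8+ cells, 11 of 14 egress and late maturation genes were higher and none lower (median 2.87, against -0.05 over all genes), with Slfn1 (4.38) and Ccr7, a receptor that guides cells to the medulla (3.58), among them. Of 6 preselection genes 5 were lower (median -4.35), with Rag2 at -4.98 and Aqp11 at -4.45. Of 15 signal-induced genes 2 were higher (median 1.06), Tnfrsf9 (5.64) and Gadd45b (4.69). Of 24 partners 1 was higher, Cblb (1.20), and 2 were lower, Themis (-1.49) and Cbl (-1.47), with a median of -0.11. Of 14 other receptors 2 were higher (median 0.15), Tnfrsf18 (1.94) and Cd53 (1.20).

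In CD4-CD8+ relative to CD4+CD8+ cells, 6 of 14 egress genes were higher (median 2.05, against -0.01 over all genes), led by Nkg7 (4.41), 2 of 6 preselection genes were lower (median -1.72), Aqp11 (-2.20) and Dntt (-1.82), 1 of 15 signal-induced genes was higher (median 0.54), Pdcd1 (2.53), 1 of 24 partners was lower (median -0.14), Themis (-1.11), and 1 of 14 other receptors was higher (median 0.00), Itgae (4.07). In PosSelected minus NoSelection CD4+CD8+ cells 3 of 7 preselection genes were lower (median -2.03, against -0.03 over all genes): Rag1 (-4.56, SE 0.72), Aqp11 (-3.05, SE 0.59) and Arpp21 (-2.03, SE 0.53). Like the other calls of this fit, these were lost with at least 5 cells per sum and without the OT2 NegSelected mouse. No gene of the 4 other lists was called there; Nab2 had a difference of 1.77 (SE 0.57, adjusted p 0.149).

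For each member, the 3 genes with the most similar level over the 18 sums of at least 20 cells were found among 3549 genes by Pearson's r of log2(CPM + 10). The sums share mice and depth, and r is given without a test. Cd5 was most like Cd6 (0.886), Lmo4 (0.858) and Nab2 (0.825). Cd6 was most like Cd5 (0.886), Cd28 (0.869) and Hnrnpf (0.855). Cd2 was most like Nab2 (0.899), Ptpn6 (0.881) and Aldoa (0.876). Itm2a was most like Itgb2 (0.875), Cd2 (0.870) and Csnk2a1 (0.863). Cd28 was most like Macf1 (0.871), Cd6 (0.869) and Cd3d (0.862). Cd69 had its highest values with Med14 (0.788), Septin7 (0.766) and Cep120 (0.765), and Cd27 with Skp1a (0.874), Zcchc17 (0.872) and H3f3a (0.868). Among the 7 members, r ran from 0.301 for Cd2 with Cd27 to 0.886 for Cd5 with Cd6.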

How the data were processed

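RNA and antibody libraries of 6 mice were analysed; the receptor sequence libraries were not analysed here. Per the submitters' processing notes the reads were processed with Cell Ranger 8.0.1 and Seurat on mm10; how hashtags were assigned and doublets removed is not given in the sources used here, and no further doublet call was made. The deposited tables hold raw UMI counts per gene or antibody and cell, and 506 genes was the fewest in any cell. Gates were set on log2 of CD4 and CD8A antibody UMIs per 10000 + 1 with a mixture of 2 normal components, at 7.22 for CD4 and 7.64 for CD8A. Counts were summed per mouse, or per mouse and gate with at least 10 cells.

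Sums were tested with edgeR 4.0.16 (TMM scaling, filterByExpr, quasi-likelihood test, R 4.3.3) over all genes or antibodies, with Benjamini-Hochberg adjustment and a threshold of 0.05. The fits had terms for host and receptor (all cells, 2 residual degrees of freedom), gate and mouse (12), gate, mouse and gate by receptor (9), or host and receptor in CD4+CD8+ cells (1). Standard errors were derived from edgeR's F statistic. Gates of one mouse come from the same animal, so the mouse was a block. The code was tested on simulated data. Alternatives were RLE scaling, DESeq2 1.42.0, no low-count filter, other cell minimums, leaving out border, deep or shallow cells, capped antibody counts, CD4, CD8A and CD8B left out of antibody totals, no block, and each mouse left out; the minimum of 5 cells and the removal of shallow cells were chosen after seeing the data. The antibody to THY1.2 took 29.1% of antibody UMIs. The tested genes, lists and alternatives were chosen with earlier results of these data known. Named genes of each list are up to 3 called genes with the greatest change, or where none is called up to 2 with the lowest p. Some genes of these lists are not reported here.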

Additional observations from a re-analysis of the deposited data

Results flagged for a closer look

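In 18 cases the ratio between 2 hosts lay above 1 in one receptor and below 1 in the other, with both counting intervals leaving out 1. The cases come from all members, gates and host pairs in which each mouse had at least 10 cells. The share of such cases over all genes or antibodies was not computed, so their number is not a trait of these members. With 1 mouse per receptor and host these differences were not tested. The ratios are of CPM, and antibody intervals are narrow because they cover counting error only.

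The first cases compare NegSelected over PosSelected mice. In CD4-CD8- cells Cd5 had a ratio of 2.12 in OT2 and 0.742 in OT1, and Cd2 of 2.54 in OT2 and 0.754 in OT1. Itm2a there had 2.03 in OT2 and 0.585 in OT1, and Cd28 had 1.87 in OT2 and 0.582 in OT1. The CD2 antibody moved in the same direction, at 2.17 in OT2 and 0.917 in OT1. In the sum of all cells Cd5 had a ratio of 1.84 in OT2 and 0.814 in OT1, Cd6 of 1.63 in OT2 and 0.806 in OT1, and Itm2a of 1.23 in OT2 and 0.576 in OT1, with the CD69 antibody at 1.09 in OT2 and 0.887 in OT1. In CD4+CD8- cells Itm2a had 1.25 in OT2 and 0.776 in OT1.

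For PosSelected over NoSelection, Cd6 in CD4+CD8+ cells had a ratio of 2.56 in OT2 and 0.395 in OT1. The remaining cases were antibodies. In CD4+CD8- cells CD5 had 1.11 in OT2 and 0.881 in OT1, and CD27 had 0.698 in OT2 and 1.53 in OT1. In CD4-CD8- cells CD2 had 0.511 in OT2 and 1.14 in OT1, CD69 had 0.815 in OT2 and 1.12 in OT1, CD28 had 0.78 in OT2 and 1.19 in OT1, and CD27 had 0.648 in OT2 and 1.06 in OT1. In the sum of all cells CD28 had 0.78 in OT2 and 1.25 in OT1.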

How the results depend on the processing

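No member that was called changed its direction under any alternative. Over 120 member results and 1076 alternative values, 947 kept direction and side of the threshold, 46 newly passed it, 21 no longer did and 62 changed direction. Depth limits Cd69, which had 1 to 117 UMIs per sum, and all values of the OT2 NoSelection CD4+CD8+ cells. In the gate fits without border cells no OT1 CD4+CD8+ sum remained, so their CD4+CD8+ cells came from OT2 mice only. The fit of CD4+CD8+ cells without border cells was not run, since too few OT1 cells remained. There, only the OT2 NegSelected mouse could be left out. The cause of these changes was not tested. The gates are paired by animal; without that replicate block, CD5 antibody (adjusted p 0.0302) and Cd27 RNA (-0.64, adjusted p 0.0492) newly passed in CD4-CD8- cells, and of the members' other calls in that fit none changed.

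Over all cells, PosSelected minus NoSelection called 1 gene, against 280 with no filter, 33 with DESeq2 and 99 without the deepest cells (each mouse left out in turn: 0 to 248, the highest without the OT1 NoSelection mouse). NegSelected minus PosSelected called 0, against 98, 6 and 14 in the same order (0 to 59, the highest without the OT2 NoSelection mouse). OT2 minus OT1 called 97, against 589 with no filter and 224 without the deepest cells (25 without the OT1 NegSelected to 660 without the OT2 NoSelection mouse). For antibodies, DESeq2 called 7, 3 and 23 in these comparisons, against 1, 0 and 0 in edgeR; capped counts gave 0 in the first and 8 in the last. With each mouse left out, the ranges were 0 to 12, 0 to 12 and 0 to 22, the highest each time without the OT1 PosSelected mouse.

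By gate, CD4+CD8- minus CD4+CD8+ called 451 genes (275 without the OT2 PosSelected mouse to 490) and 33 antibodies (21 with at least 20 cells). CD4-CD8+ minus CD4+CD8+ called 236 genes, against 393 with no filter and 456 without border cells (24 without the OT2 NegSelected mouse to 246), and 10 antibodies, against 19 without border cells (1 without the OT2 NegSelected mouse to 13). CD4-CD8- minus CD4+CD8+ called 556 genes, against 356 without the deepest cells (342 without the OT2 NegSelected mouse to 520), and 34 antibodies (19 without the OT1 NoSelection mouse to 31). The gate by receptor tests called 4 genes (4 to 10 with a mouse left out) and 12 genes (0 to 14), and 0 antibodies each (0 to 1). In CD4+CD8+ cells, PosSelected minus NoSelection called 24 genes, against 0 with at least 5 cells and 0 without the OT2 NegSelected mouse; NegSelected minus PosSelected called 0, against 2 with at least 5 cells.

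Of the 62 changes of direction, 31 were of differences given above or drawn in a figure, none of them called, and are listed here. In CD4+CD8- cells, Itm2a was 0.022 with no filter, 0.0097 with DESeq2, 0.46 with at least 20 cells and 0.53 without border cells (-0.39 to 0.37 with a mouse left out), Cd69 was 0.14 with at least 20 cells and 0.27 without border cells, and Cd2 was -0.046 to 0.42 with a mouse left out. In CD4-CD8+ cells, Cd2 was 0.018 with no filter, 0.10 without the deepest cells, 0.15 with at least 20 cells and 0.56 without border cells (-0.28 to 0.24). Cd69 there was 0.29 with at least 20 cells and 0.35 without border cells (-0.34 to 0.14), Cd28 was 0.15 without border cells, and Cd6 was -0.55 to 0.0025 with a mouse left out. NegSelected minus PosSelected in CD4+CD8+ cells with at least 5 cells was -0.19 for Cd5, -0.52 for Itm2a, -0.10 for Cd28 and -0.0069 for Cd27. OT2 minus OT1 of the CD28 antibody was 0.0087 with capped counts (-0.26 to 0.11).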
